A study of Mus musculus with 4 samples.

Results

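The Frizzled receptors Fzd1 to Fzd8 and their coreceptors Lrp5 and Lrp6 were examined in sorted mouse bone marrow stem and progenitor cells. The 10 genes were chosen by name, and every probe set whose only gene symbol was one of them was taken, which gave 26 of 34945 named probe sets and 10 of 18193 genes. The value used for a gene was that of its probe set with the highest mean over the arrays. The series holds 4 Affymetrix arrays, 2 labelled Alox15-/-, for loss of the arachidonate 15-lipoxygenase gene, and 2 labelled WT. All mice were on the C57BL/6 background and 8 weeks old, and the labels name no other allele or treatment in either group. The labels call the cells haematopoietic stem cells (HSCs) and give the sort as lineage-negative, c-Kit-positive and Sca-1-positive. That gate holds multipotent progenitors as well as stem cells. The replicates are called biological, but no animals or pools are stated, and the p-values therefore measure only how far these samples spread, part of which may be technical. The question asked was how the expression profile of these cells differs between the genotypes.

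Wnt proteins are secreted lipid-modified signals that bind the cysteine-rich domain of Frizzled receptors, which cross the membrane 7 times. When a Wnt joins a Frizzled to Lrp5 or Lrp6, the complex recruits Dishevelled and Axin, the destruction of beta-catenin stops, and beta-catenin acts with TCF/LEF factors in the nucleus. Frizzleds also act without Lrp5 or Lrp6, in planar cell polarity and calcium signalling. In blood stem cells Wnt signals have been linked to self-renewal and to quiescence, with effects that depend on dose and on the branch of the pathway.

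The deposited values are log2 expression values, on which a difference of 1 is a doubling, and the number of arrays limits their precision. The brightest of the 27 probe sets for bacterial genes, for which a mouse sample holds no transcript, read 5.17 and 5.08 on the arrays labelled Alox15-/- and 4.995 and 4.95 on the WT arrays, and served as the level of background, called the highest control below. Alox15 itself went against the label, at 10.68 and 10.75 on the arrays labelled Alox15-/- and 4.63 and 4.35 on the WT arrays (difference 6.22 ± 0.15, SE, limma adjusted p = 0.00131). Both WT values lay below the highest control. The sources used here do not place its probe set inside or outside the deleted part, so it does not settle whether the labels are right. An exchange of the labels was not tested and would reverse every direction below. Each direction is given for the arrays as labelled. Of the gate's markers measured, 6 of 6 lay above the highest control on all arrays, with Kit at 10.34 and 10.23 on the arrays labelled Alox15-/- and 10.63 and 10.48 on the WT arrays. Ly6a, which encodes Sca-1, was not analysed here. Markers of mature neutrophils, which the gate should remove, were above 0 in 10 of 11 genes, with 0 past limma's adjusted threshold, a median difference of 0.59 and list means of 6.84 and 6.59 on the arrays labelled Alox15-/- and 5.65 and 6.33 on the WT arrays. S100a9, a calcium-binding protein gene of neutrophils, read 10.38 and 9.98 on the arrays labelled Alox15-/- and 8.16 and 9.28 in WT. Of 8 lists of other cell types, list means of the groups lay apart for 6, 5 higher and 1 lower in the arrays labelled Alox15-/-, with 0 genes called by limma. Those of monocytes and macrophages, 8 of 10 genes above 0, were 6.79 and 6.80 on the arrays labelled Alox15-/- and 6.32 and 6.49 in WT, and those of B cells, 7 of 9 above 0, were 6.32 and 6.37 on the arrays labelled Alox15-/- and 5.94 and 6.06 in WT. Those of megakaryocytes, 5 of 8 genes below 0, were 6.13 and 6.06 on the arrays labelled Alox15-/- and 6.32 and 6.46 in WT. The T and NK cell and stromal lists were also higher, by less, and the erythroblast and endothelial lists overlapped. Cd3e, Hba-a1 and Cdh5, which define T cells, erythroblasts and endothelium, were below the highest control on all arrays. Other genes of these lists lay above it on all arrays, 5 of 10 for T and NK cells, 6 of 8 for erythroblasts and 6 of 10 for endothelium. So did Csf1r, Pf4 and Col1a1, the defining genes of the monocyte, megakaryocyte and stromal lists. The 3' minus 5' signal of Gapdh, a sign of RNA quality, also separated the groups, at 2.14 and 2.17 on the arrays labelled Alox15-/- and 2.37 and 2.39 on the WT arrays. The part of these cells and of RNA quality in the values below was not tested, and in such mixed samples fewer cells of a type and less RNA per cell cannot be told apart.

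None of the 10 receptor and coreceptor genes differed past the threshold (limma, adjusted p under 0.05 over all genes), with adjusted p from 0.630 to 0.989. Over all genes 0.0055% passed, which is 1 gene, Alox15. The measured differences, labelled Alox15-/- minus WT, ran from -0.58 for Fzd8 to 0.17 for Fzd6, with 4 above 0 and 6 below. Their median was -0.07, beside 0.02 over all genes, of which 53.8% were above 0. The median size of the difference, sign aside, was 0.13 for the 10 genes and 0.14 for all genes. At an unadjusted limma p under 0.05 there were 2 of the 10 genes, Fzd7 and Fzd8, both lower in the arrays labelled Alox15-/-, beside 7.77% of all genes. The groups did not overlap for 3 of the 10, beside 38.5% of all genes. Fzd6 was the 1 gene above WT, beside 21.4% of all genes, and Fzd7 and Fzd8 were the 2 below it, beside 17.1%. With 2 arrays a group an exact two-sided permutation test of 1 gene cannot give a p below 0.333, so lack of overlap cannot be tested gene by gene. These counts rest on 2 and 3 genes and are given as a description.

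**Figure D1:**
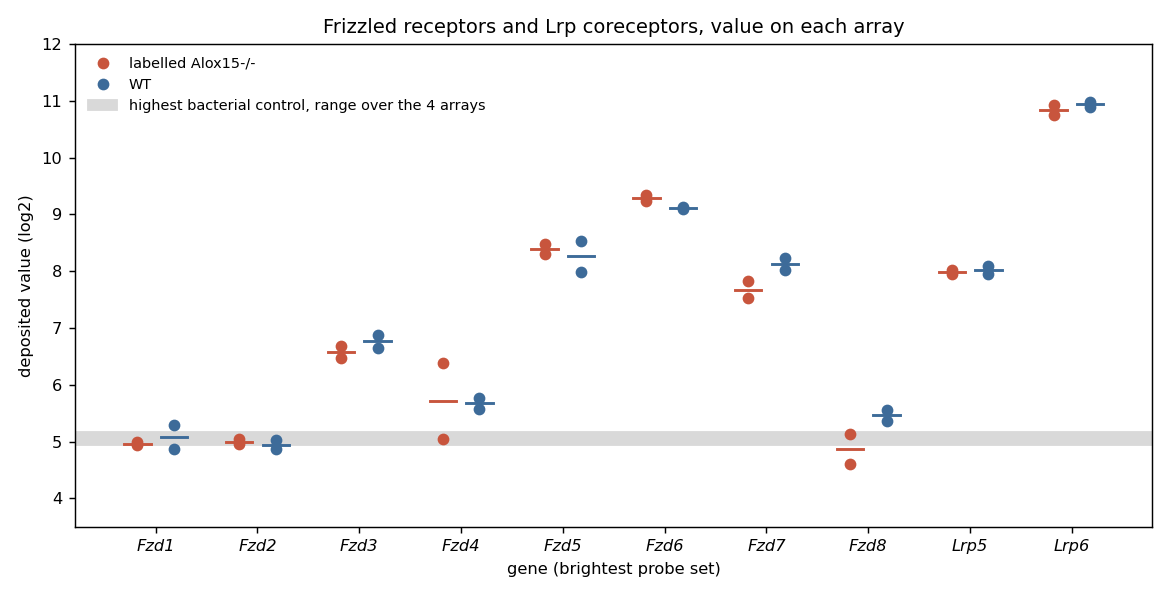
Deposited log2 value (y axis) of each of the 10 genes (x axis) at its brightest probe set. Points are single arrays, red for the 2 labelled Alox15-/- and blue for the 2 WT, bars are group means, and the grey band is the range of the highest bacterial control, 4.95 to 5.17. Fzd1 and Fzd2 sit at the band, Fzd4 and Fzd8 close to it, and the others above it. Heights of different genes are not comparable.

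Fzd7, Fzd1 and Fzd2 form 1 branch of the Frizzled family and bind Wnts in beta-catenin signalling. Fzd7 is known as a Wnt receptor of intestinal stem cells. It read 7.82 and 7.52 on the arrays labelled Alox15-/- and 8.23 and 8.02 on the WT arrays. Both arrays labelled Alox15-/- lay below both WT arrays. The difference was -0.45 ± 0.17 (SE, n = 2 each), or 0.732-fold, with a 95% interval of -0.87 to -0.03 and limma adjusted p = 0.632. A second Fzd7 probe set, which the annotation assigns to the same source sequence, pointed the other way. It read 5.49 and 5.01 on the arrays labelled Alox15-/- and 4.81 and 4.81 on the WT arrays, a difference of 0.44 ± 0.20 (SE) with adjusted p = 0.679 over all probe sets. Only the first of these 4 values lay above the highest control. The gene's lower value in the arrays labelled Alox15-/- thus rests on 1 probe set, the one that was above the control on every array.

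Fzd1 read 4.99 and 4.94 on the arrays labelled Alox15-/- and 4.87 and 5.30 on the WT arrays. The groups overlapped, WT replicate 2 was the only array above its highest control, and the difference was -0.12 (95% interval -0.58 to 0.33, adjusted p = 0.899). Without WT replicate 2 it was 0.09. The other Fzd1 probe set, at 3.92 and 3.92 against 4.08 and 4.35 in WT, was below the control on every array. Fzd2 read 4.96 and 5.04 on the arrays labelled Alox15-/- and 4.87 and 5.02 on the WT arrays. Again only WT replicate 2 was above its control, and the difference was 0.05 (-0.29 to 0.40, adjusted p = 0.942), or -0.02 without WT replicate 1. Its other probe sets differed by 0.15 and -0.24, both below the control on all arrays. Fzd1 and Fzd2 were therefore hardly distinguishable from background on these arrays, and no difference was detectable. Fzd2 lies on chromosome 11, as does Alox15, with 567 measured genes between them.

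Fzd8 and Fzd5 form a second branch. Fzd8 is known in mouse stem cells as the Frizzled that acts with the cadherin Flamingo, encoded by Celsr2, in a form of Wnt signalling without beta-catenin linked to quiescence. Fzd8 read 5.14 and 4.61 on the arrays labelled Alox15-/- and 5.37 and 5.56 in WT. Both WT arrays were above their highest control and neither array labelled Alox15-/- was. The measured difference was -0.58 ± 0.21 (SE, n = 2 each, 95% interval -1.12 to -0.05, adjusted p = 0.630). Since the arrays labelled Alox15-/- give only a bound, the WT mean was at least 1.26-fold higher in these arrays, from a WT mean of 5.46 against a floor of 5.12 on the arrays labelled Alox15-/-, where the measured mean was 4.88. The floor is, per array, the higher of the highest control and the gene's own value, and this bound allows for background only, not for the spread between arrays. The other Fzd8 probe set was below the control on all arrays and differed by 0.12. Celsr2 read 7.88 and 8.16 on the arrays labelled Alox15-/- and 8.02 and 8.05 on the WT arrays, groups that overlapped, with a difference of -0.01 (adjusted p = 0.991). A second Celsr2 probe set gave 0.25.

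Fzd5, a receptor of beta-catenin signalling known from yolk sac and gut, was above the control on every array. It read 8.48 and 8.30 on the arrays labelled Alox15-/- and 7.98 and 8.54 on the WT arrays. The WT arrays enclosed both others, and the gap between them, 0.56, was larger than the difference of 0.13 (-0.42 to 0.68, adjusted p = 0.910). Without WT replicate 1 the difference was -0.15. The second Fzd5 probe set was below the control on every array and differed by -0.07.

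Fzd6 and Fzd3 are the Frizzleds best known from planar cell polarity, Fzd3 from axon guidance and Fzd6 from hair patterning in mice. Fzd6 read 9.34 and 9.24 on the arrays labelled Alox15-/- and 9.09 and 9.14 on the WT arrays. Both arrays labelled Alox15-/- were above both WT arrays, by 0.17 ± 0.13 (SE, n = 2 each) on average, or 1.13-fold, with a 95% interval of -0.15 to 0.50 and adjusted p = 0.783. A second probe set from the same source sequence, also above the control on all arrays, read 6.72 and 6.32 on the arrays labelled Alox15-/- and 6.97 and 6.60 on the WT arrays. Those groups overlapped and the difference was -0.26 ± 0.22. The remaining one, below the control on all arrays, differed by -0.02. The direction of Fzd6 therefore depended on the probe set.

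Fzd3 had 6 probe sets, the most of the 10 genes. At the brightest it read 6.69 and 6.48 on the arrays labelled Alox15-/- and 6.88 and 6.66 on the WT arrays, a difference of -0.18 (-0.57 to 0.21, adjusted p = 0.812) with overlapping groups. The next brightest gave 6.45 and 6.36 against 6.69 and 6.69 in WT, with both arrays labelled Alox15-/- lower and a difference of -0.28 ± 0.14. Across the 6 the difference ran from -0.67 to 0.86, with 4 below 0. The value of 0.86 came from 5.02 and 6.69 on the arrays labelled Alox15-/- and 4.96 and 5.03 on the WT arrays, so a single array, Alox15-/- replicate 2, set it. Of the 3 probe sets above the control on all arrays, 3 were below 0, from -0.51 to -0.18, and none had a limma adjusted p under 0.05.

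Fzd4, a receptor of Wnts and of the non-Wnt ligand Norrin, best known from retinal vessels, had the widest gap between 2 arrays of a group among the brightest probe sets. It read 6.38 and 5.05 on the arrays labelled Alox15-/- and 5.58 and 5.77 in WT. The arrays labelled Alox15-/- enclosed the WT values, 1.33 apart, and Alox15-/- replicate 2 was below its control. The difference of 0.04 had the widest interval of the 10 genes, -1.04 to 1.12, or 0.485-fold to 2.17-fold (adjusted p = 0.989). It was -0.63 without Alox15-/- replicate 1, 0.70 without Alox15-/- replicate 2 and -0.06 without WT replicate 1. A dimmer probe set read 4.75 and 4.49 on the arrays labelled Alox15-/- and 4.97 and 5.78 on the WT arrays. Its groups did not overlap and it differed by -0.75 ± 0.29 (adjusted p = 0.645), but only WT replicate 2 was above the control. The dimmest, below the control throughout, differed by 0.20. No statement on the direction of Fzd4 can be drawn from these values.

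The coreceptors Lrp6 and Lrp5, single-pass members of the LDL receptor family that bind Axin once phosphorylated, were above the highest control on all arrays, with the 2 arrays of a group at most 0.175 apart at their brightest probe sets. Lrp6 read 10.93 and 10.75 on the arrays labelled Alox15-/- and 10.89 and 10.98 on the WT arrays. The groups overlapped, and the difference of -0.10 had a 95% interval of -0.45 to 0.25, or 0.733-fold to 1.19-fold (adjusted p = 0.895). The other Lrp6 probe set, also above the control on all arrays, read 7.07 and 6.91 against 6.89 and 6.91 in WT and differed by 0.09. Lrp5, with 1 probe set, read 7.95 and 8.02 on the arrays labelled Alox15-/- and 7.95 and 8.10 on the WT arrays. Its difference was -0.04, with an interval of -0.38 to 0.30, or 0.770-fold to 1.23-fold (adjusted p = 0.961), and it was 0.035 without WT replicate 2. These intervals are for 1 gene each and are not adjusted, and they bound the coreceptors' differences without showing that the groups were equal.

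**Figure D2:**
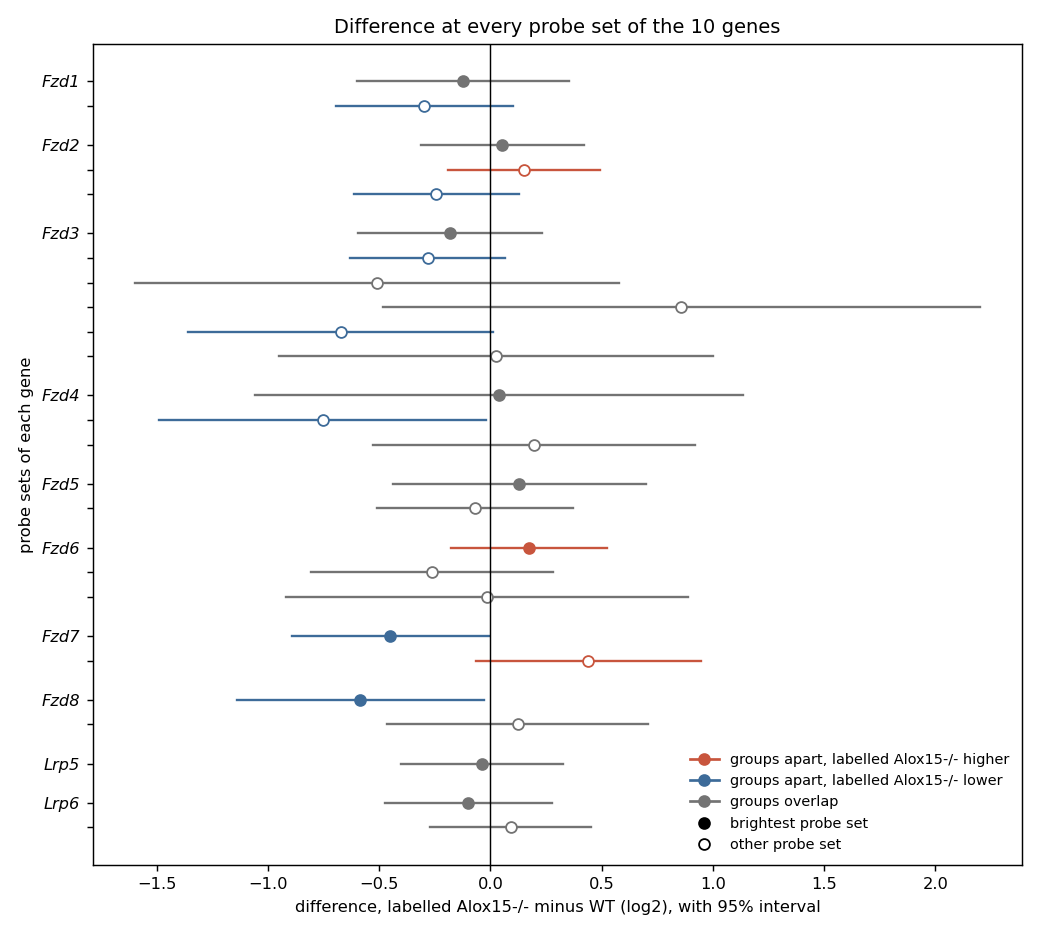
Difference (x axis, log2, labelled Alox15-/- minus WT) with its 95% limma interval at each of the 26 probe sets, grouped by gene (y axis) from brightest to dimmest. Filled points are the brightest probe set, red and blue mark groups that do not overlap with the arrays labelled Alox15-/- higher or lower, and grey marks overlap. Intervals are widest for Fzd3 and Fzd4, and the 2 Fzd7 probe sets point opposite ways.

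Taking all probe sets as separate measurements, 0 of the 26 had an adjusted p under 0.05 by limma, beside 0.00572% of all named probe sets (2 probe sets), and 3 had an unadjusted p under 0.05, beside 7.70%. The 3 were the brightest ones of Fzd7 and Fzd8 and the dimmer Fzd4 one, all lower in the arrays labelled Alox15-/-. The groups did not overlap for 10 of the 26, 3 higher and 7 lower in the arrays labelled Alox15-/-, beside 38.4% of all probe sets, of which 21.3% were higher and 17.2% lower. The difference exceeded the larger gap within a group for 8 of the 26, beside 26.1% of all. Probe sets of 1 gene share its RNA and are not independent. Of the 9 genes with several probe sets, 8 had probe sets of both signs, the exception being Fzd1, beside 56.3% of all genes with several. Of the 26 probe sets, 10 lay above the highest control on all arrays, 8 on some and 8 on none. Only 6 of the 10 genes, Fzd3, Fzd5, Fzd6, Fzd7, Lrp5 and Lrp6, had a probe set above it on all arrays.

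**Figure D3:**
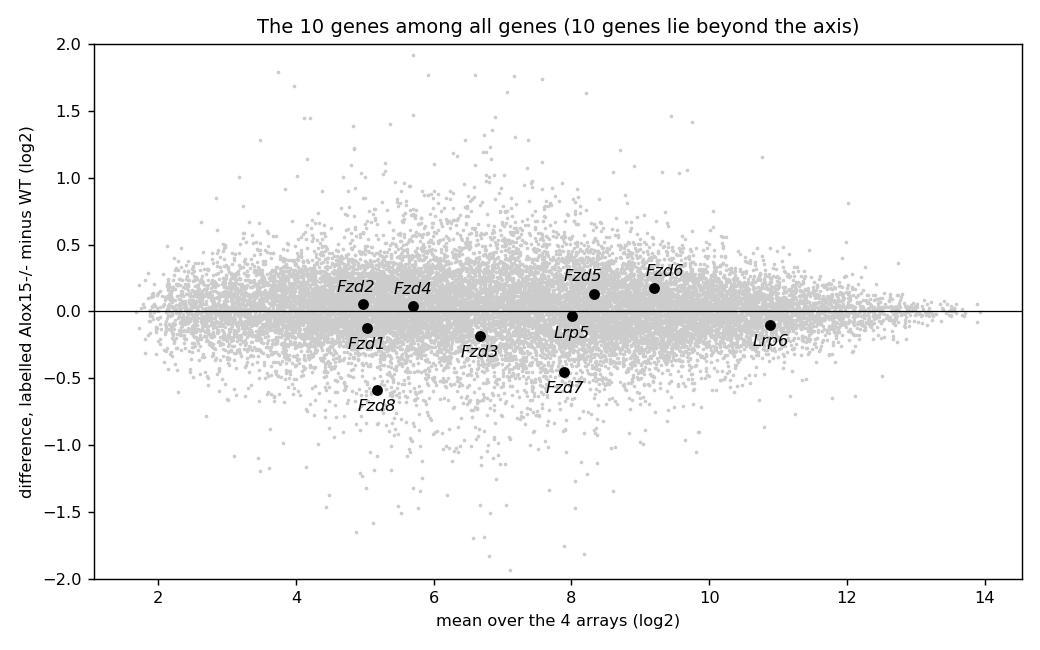
Difference (y axis, log2, labelled Alox15-/- minus WT) against the mean over the 4 arrays (x axis, log2) for all 18193 genes (grey) and the 10 genes (black). The axis stops at 2 in each direction and 10 genes lie beyond it. The 10 genes lie within the grey cloud, Fzd8 and Fzd7 towards its lower side.

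The rest of the pathway was followed through lists of genes by role. Of 120 other genes listed 115 were measured, and 0 had an adjusted p under 0.05 by limma. At an unadjusted p under 0.05 there were 9 of them, beside 7.77% of all genes, and 62 were above 0 and 53 below, with a median of 0.02. The 3 genes named from each list are those with the highest mean among genes above the control on all arrays, whatever their difference. Their values are those of the brightest probe set, and for several of them another probe set differed in sign. Of the other receptors of the Frizzled class, Smo, the transducer of Hedgehog signals, differed by -0.15, Fzd10 by -0.16 and Fzd9 by 0.12. All had overlapping groups, with limma adjusted p from 0.868 to 0.904. The other probe sets of Smo gave -0.57 and 0.455, and that of Fzd10 gave 0.385. For Wnt ligands the median was 0.14 over 19 genes, 12 higher and 7 lower, and 7 lay below the control on all arrays. Wnt2b differed by -0.48, Wnt8b by 0.18 and Wnt11 by -0.05. Genes of Wnt secretion had a median of -0.07 over 5, with Vps35, of the retromer that recycles the Wnt carrier, at -0.07, the carrier Wls at -0.08 and Tmed5 at 0.27. Other Wnt receptors and polarity genes had -0.02 over 12, with Vangl2 at 0.10 and the pseudokinase receptor gene Ptk7 at 0.05.

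Genes that limit the receptors at the cell surface, or that counter such limits, showed no called difference either. Inhibitors had a median of 0.01 over 14 genes, 7 higher and 7 lower, and 5 of the 14 lay below the control on all arrays. Apcdd1, a membrane inhibitor, differed by 0.36, Kremen1, which removes Lrp6 together with Dkk proteins, by 0.27 and the decoy Sfrp5 by -0.11. The other probe sets of Apcdd1 ran from 0.22 to 0.81, those of Kremen1 gave -0.3 and 0.33, and that of Sfrp5 gave 0.12. Receptor turnover genes had a median of 0.18 over 9 genes, 8 higher and 1 lower, with 4 of the 9 below the control on all arrays. This list joins genes of opposite roles, so its count gives no direction for receptor turnover. Znrf3, a ubiquitin ligase that removes Frizzled and Lrp6 from the surface, read 7.31 and 7.16 on the arrays labelled Alox15-/- and 7.15 and 6.77 on the WT arrays. Both arrays labelled Alox15-/- lay above both WT arrays, with a difference of 0.27 (adjusted p = 0.749). Lgr4, an R-spondin receptor that holds Znrf3 in check, was the 1 lower gene, at 5.75 and 5.28 on the arrays labelled Alox15-/- and 6.02 and 6.20 on the WT arrays. Its difference was -0.59 ± 0.20 (SE) with adjusted p = 0.622, and its other probe set gave -0.06. The R-spondin gene Rspo4 differed by 0.05.

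Genes of receptor processing and phosphorylation had a median of -0.10 over 14, 6 higher and 8 lower. Atp6ap2, an adaptor between Lrp6 and the proton pump, differed by 0.04 and Gak by 0.03. Shisa5, of a family in which other members retain Frizzled in the cell, read 10.98 and 10.74 on the arrays labelled Alox15-/- and 11.61 and 11.38 on the WT arrays, a difference of -0.63 ± 0.16 (SE, adjusted p = 0.575) with groups that did not overlap and -0.48 at its other probe set. Transducers had a median of -0.03 over 22, 9 higher and 13 lower. Ctnnb1, encoding beta-catenin, differed by -0.04, the kinase gene Csnk1d by -0.19 and Dvl1, a Dishevelled of the kind Frizzleds recruit, by -0.51 (-0.10 at its other probe set, limma adjusted p = 0.588). The other Dishevelled genes, not among the 3 brightest, differed by 0.59 (Dvl2) and -0.02 (Dvl3). Target genes had a median of 0.11 over 13, 11 higher and 2 lower, beside 53.8% of all genes above 0. Of the 13, 4 lay below the control on all arrays. Myc differed by -0.22, Cd44 by 0.02 and Ccnd1 by 0.09. The other probe sets of Cd44 were all below 0, from -0.36 to -0.13, and those of Ccnd1 ran from -0.06 to 0.52. Among relatives of Lrp5 and Lrp6 in the LDL receptor family the median was 0.07 over 11, with Vldlr at 0.04, Lrp8 at 0.14 and Lrp10 at 0.12. The limma adjusted p was 0.486 or more for all 115 genes.

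**Figure D4:**
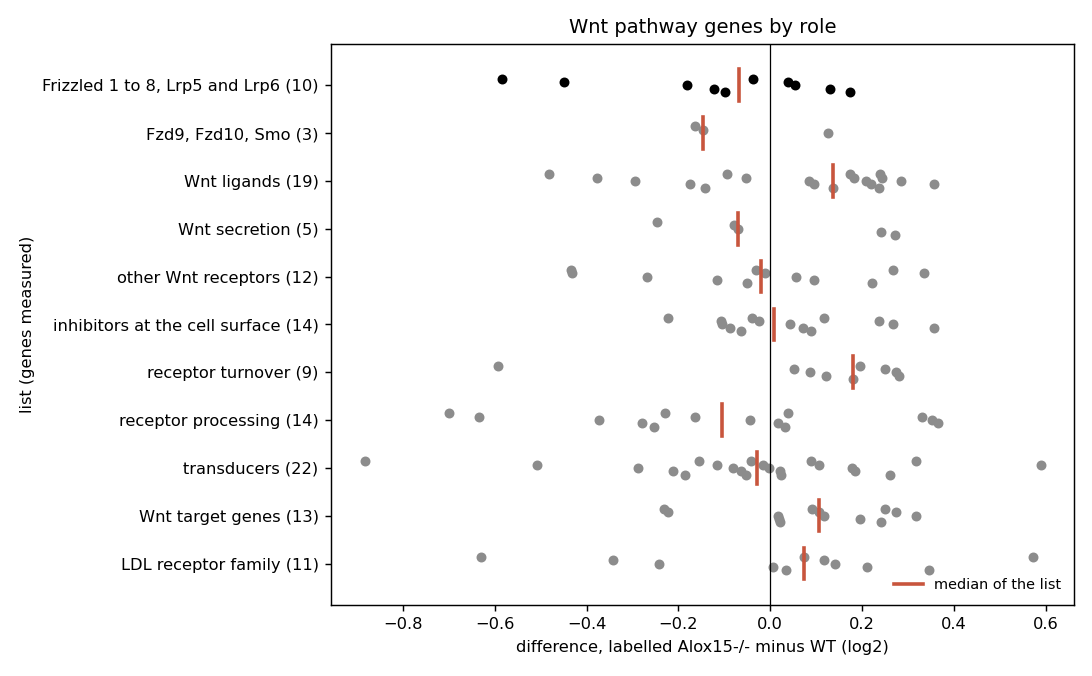
Difference (x axis, log2, labelled Alox15-/- minus WT) of each measured gene (points) in lists by role (y axis, number measured in brackets), with the median of each list as a red bar. The 10 receptor and coreceptor genes are in black, with a median of -0.07, and each list has genes on both sides of 0. A gene may stand in 2 lists.

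Recomputed under 14 other settings, the 10 genes gave 135 values, of which 0 had an adjusted p under 0.05 by limma and the lowest was 0.519. In 53 of the 135 the setting leaves the gene's own values, and so its difference, as reported, and 82 were free to move. Of these, Fzd8 and Lrp6 had 8 each, from -0.85 to -0.23 and from -0.19 to -0.0038, but no setting used their other probe sets alone, which gave 0.12 and 0.09. Fzd7 was above 0 under 1 setting, the choice of its dimmer and more variable probe set, which gave 0.44, and taking the mean of its probe sets left -0.005.

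**Figure D5:**
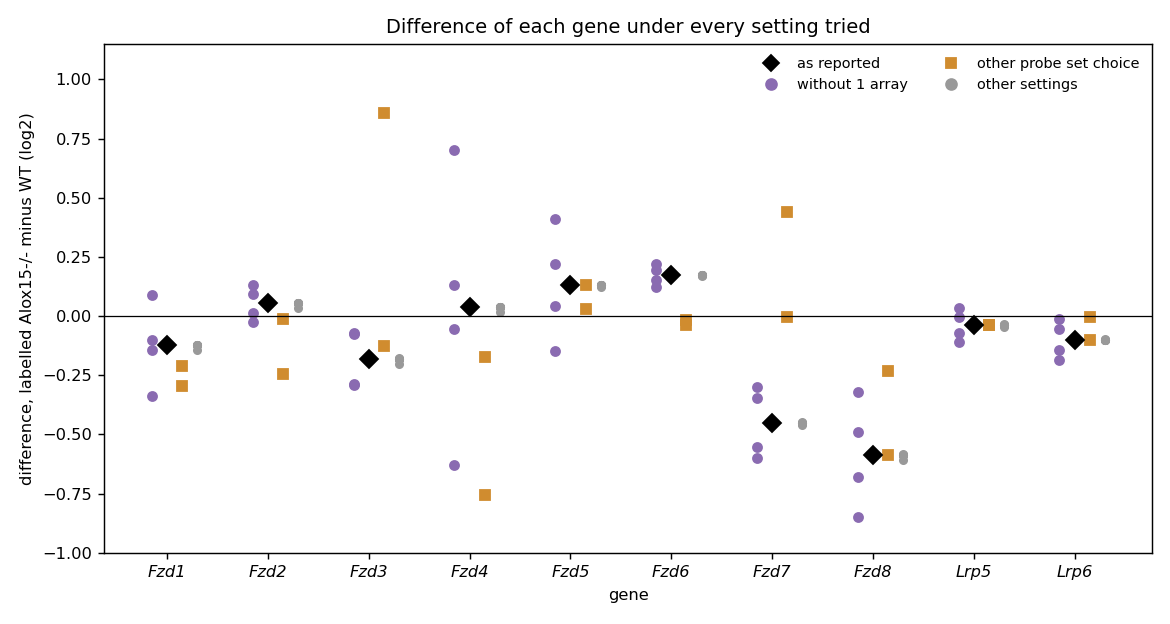
Difference (y axis, log2, labelled Alox15-/- minus WT) of each gene (x axis) as reported (diamond), without 1 array (purple), with another choice of probe set (orange) and under the other settings (grey). Points on both sides of 0 mark a gene whose direction depended on the setting, as for Fzd4, from -0.75 to 0.70, while those of Fzd8 and Lrp6 lie below 0 without any setting that uses their other probe sets alone.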

How the data were processed

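The deposited series matrix gives log2 expression values for 45101 probe sets on 4 arrays, made by the authors with Affymetrix Expression Console 1.1 and RMA, per the submitters' processing notes. RMA subtracts background, quantile-normalizes and summarises probe sets, which removes differences in the overall distribution between arrays, and sorted columns differed by at most 0.0325. The labels' protocols name a kit that labels sense targets from whole transcripts, although the probe set identifiers are those of a design for antisense targets, and the sources used here do not settle which was hybridised. Groups came from sample titles. By the platform annotation 34945 probe sets had 1 symbol, 932 several and 9211 none. Another 13 named control probe sets were left out. Matching to RefSeq (GRCm38.p6) changed 0 symbols. No genome build is named by the files, so no coordinates are given.

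For each gene the probe set brightest on average entered the model, in limma 3.58.1 under R 4.3.3 (lmFit, eBayes, two-sided, no block, no filter on dim genes), labelled Alox15-/- minus WT, with Benjamini-Hochberg adjustment over 18193 genes and a threshold of 0.05. All probe sets were fitted likewise. Standard errors and 95% intervals are limma's moderated ones, and SE stands for them throughout. The code was tested on simulated data with known changes. The genes and lists were chosen with earlier results of these data known, so lists have counts and medians but no test. All 10 genes, Alox15, defining markers and the 3 brightest genes of each pathway list above the control on all arrays were named. Dvl2 and Dvl3 were added beside Dvl1. Alternatives covered probe set choice, normalization, dim genes, variance moderation, a replicate block and leaving out each array. Figures used matplotlib 3.10.9.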

Additional observations from a re-analysis of the deposited data

How the results depend on the processing

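None of the 10 receptor and coreceptor genes and none of the 115 other pathway genes passed limma's threshold under any of the 14 other settings, and the median of the 10 genes stayed between -0.17 and 0.06, moving by less than the SD of 0.13 between replicates. Of 135 single-gene differences 53 were fixed by the setting, and of the 82 free to move 14 turned their sign. Of these 14, 8 did so outside the fits without 1 array. With the mean of all probe sets, Fzd2 was -0.013, Fzd4 -0.17 and Fzd6 -0.035. With the most variable probe set, Fzd2 was -0.24, Fzd3 0.86, Fzd4 -0.75, Fzd6 -0.016 and Fzd7 0.44, and 5 of the 10 genes had groups that did not overlap, beside 38.7% of all genes. Another probe set is another measurement, and which one reads the transcript better was not tested. Without 1 array, Fzd1 ran from -0.34 to 0.091, Fzd2 from -0.024 to 0.13, Fzd4 from -0.63 to 0.70, Fzd5 from -0.15 to 0.41 and Lrp5 from -0.11 to 0.035. Between 4 and 7 of the 10 genes then had groups apart, beside 65.4% to 73.1% of all genes. Over all genes 1 was called, 3 with the most variable probe set, 22 with a mean-dependent prior variance and 0 without any 1 array, where a lone array is assumed to vary like the other group. Over all probe sets 2 were called, 21 with the mean-dependent prior, 1 without variance moderation, 1 with the replicate block and 0 without any 1 array. The replicate numbers share only a number: same-numbered arrays' deviations from their group means correlated at -0.02 over genes, and with the replicate block 1 gene was called and 0 of the 10. The filters on dim genes left 7 and 8 of the 10, and Fzd1 and Fzd2 were lost under both. Signal over background limits Fzd1, Fzd2, Fzd4 and Fzd8.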
